A study of Mus musculus with 18 samples.

Results

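The histone cluster genes encode the linker histone H1 and the core histones H2A, H2B, H3 and H4, which package DNA into nucleosomes. They were taken as the rows of the deposited table that carry exactly 1 gene symbol beginning with H1f, H2ac, H2bc, H3c or H4c and a digit, with the row of the highest mean used where a gene had several. This rule found 29 genes among the 22180 genes measured by a row of their own, made up of 8 of class H1, 6 of class H2A, 8 of class H2B, 7 of class H4 and 0 of class H3. Another 37 genes of the same names occurred only in rows that carry several symbols, because the near-identical coding sequences of histone paralogues share probes, and these rows are described apart. For 4 further names, among them H1f0, no row was found and they are not analysed here.

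The measurements came from mouse fetal thymus at E18.5. WT, Gli3+/- and Gli3-/- embryos of the C57BL/6 background were compared, in which the Gli3 deletion is constitutive and therefore present in thymic stroma as well as in thymocytes, and which do not survive to birth when homozygous. Each genotype gave 3 sorted fractions, double positive thymocytes (CD4+CD8+, DP) without CD69, DP thymocytes with CD69, and CD4 single positive thymocytes (CD4+CD8-, SP4), and each of the 9 groups was measured on 2 Affymetrix Mouse Gene 2.0ST arrays, 18 arrays in all. CD69 appears on DP cells after they receive the TCR signal for positive selection, so the populations follow DP cells before that signal, DP cells after it, and CD4 lineage cells.

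Most histone cluster genes are replication-dependent. Their mRNAs lack a poly(A) tail, end in a stem-loop that is bound by Slbp, and accumulate while DNA is being copied, when new nucleosomes are needed; their transcription depends on Npat, and the proteins are handed to DNA by chaperones such as Chaf1a and Asf1b. A few related genes, among them H1f10, are expressed outside S phase, and others (H1f6, H1f7, H2ac1, H2bc1 in the testis, H1f8 in the oocyte) belong to the germ line. In the thymus, rapid division accompanies entry to the DP stage and ends in small, mostly resting DP cells, the pool from which positive selection draws.

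Values are the authors' normalised intensity on a linear scale, where the middle row had a mean of 62.7, and 18 of the 29 genes lay at or above that level (the brighter genes below). Array medians ranged from 59.3 to 65.8. Differences are given on the log2 scale with the standard error of the limma fit to all 18 arrays, and a call means a p under 0.05 after Benjamini-Hochberg adjustment across the 22180 genes. The labels do not state that the 2 arrays of a group came from separate embryos, and a p measures the spread between these arrays. In WT the X-linked Xist differed between the numbers in every population (values below), so there they were not of the same embryos. Arrays with the same replicate number deviated together, so each result is given without and with that number as a block. The sorts held thymocytes, with Cd3e, a subunit of the TCR complex, between 2732 and 3514 on every array while Cd69 ran from 92.0 to 220.3 in CD69- DP, from 675 to 1416 in CD69+ DP and from 539 to 894 in SP4 cells. Ccr7 was 209 to 714 in SP4 and 100 to 204 in CD69+ DP cells, and Cd8a 1120 to 2689 and 2951 to 4101. Cd8b1 (1721 to 3371 against 2882 to 4311) and Rag2 (475 to 1377 against 623 to 1679) overlapped between these populations. SP4 arrays thus still held Cd8a, Cd8b1 and Rag2 mRNA, and whether DP cells remained in these sorts was not tested. Gli3 itself was dim, between 27.6 and 37.1 on all arrays whatever the genotype, so it gives no check of the deletion.

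Of the 29 genes, 21 lie on chromosome 13, 5 on chromosome 3, 2 on chromosome 6 and 1 on chromosome 15. RefSeq promoters (GRCm38.p6) were matched for 27 of them. In the 250 bases before the start, on either strand, the CCAAT box was found in 20 of 27 (74.1%, against 37.5% of all 27025 RefSeq genes of the same table), among them all 6 H2A and all 7 H2B genes but only 1 of 6 H4 genes. The octamer ATTTGCAT, which occurs in many H2B promoters and is bound by Oct1, was present in 5 of 7 H2B and 3 of 6 H2A genes and in 0 of 8 H1 and 0 of 6 H4 genes (29.6% of the 27, against 1.81% of all). TATAAA was found in 13 of 27 (48.1%, against 14.3%). The 120 bases before the start are shown for the genes the results turn on, with matches to these motifs in capitals (ATTGG is CCAAT on the other strand, and the octamer and the other motifs do not overlap in these stretches):
H1f5 (chr13:21780626-21780745, minus strand): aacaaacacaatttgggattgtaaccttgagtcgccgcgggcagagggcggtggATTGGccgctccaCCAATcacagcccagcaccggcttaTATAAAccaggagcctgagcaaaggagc
H1f10 (chr6:87981483-87981602, minus strand): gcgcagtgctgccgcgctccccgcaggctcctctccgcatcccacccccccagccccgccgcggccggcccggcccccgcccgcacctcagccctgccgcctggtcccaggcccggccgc
H2bc12 (chr13:22035701-22035820, plus strand): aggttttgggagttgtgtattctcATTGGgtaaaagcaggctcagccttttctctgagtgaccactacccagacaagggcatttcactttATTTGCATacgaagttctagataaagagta
H2bc3 (chr13:23746614-23746733, plus strand): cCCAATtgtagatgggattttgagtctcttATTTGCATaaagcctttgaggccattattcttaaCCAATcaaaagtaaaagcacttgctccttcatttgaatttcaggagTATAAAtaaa
H4c9 (chr13:22041363-22041482, minus strand): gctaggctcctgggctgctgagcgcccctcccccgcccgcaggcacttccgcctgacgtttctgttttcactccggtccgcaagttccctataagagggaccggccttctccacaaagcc
The replication-dependent genes H1f5, H2bc12 and H2bc3 carry CCAAT boxes there, and both H2B genes carry the octamer. H1f10, expressed outside S phase, and H4c9 have no match in the stretch shown. Within the 250 bases H4c9 has a TATAAA match, whereas H1f10 has no match there either.

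The genes described most fully are the 3 of each class with the highest mean intensity. For the linker class these were H1f5, with a mean of 4059 over the 18 arrays, H1f2 (1041) and H1f1 (310). For the core classes they were H2ac15 (3520), H2ac10 (1600) and H2ac20 (1008) in H2A, H2bc12 (664), H2bc18 (475) and H2bc3 (410) in H2B, and H4c12 (3281), H4c9 (241) and H4c14 (70.1) in H4. These intensities come from different probes, so they do not rank the amounts of mRNA of different genes. The germ line genes H1f6, H1f7, H1f8 and H2bc1 stayed below the middle row, between 6.87 and 57.1 on all arrays, and H2ac1 lay near it, between 35.2 and 91.7.

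The step from CD69- DP to CD69+ DP cells asks what changes with the TCR signal for positive selection. Histone genes were lower after it: 25 of 29 had a difference below 0, with a median of -0.62 (-0.89 over the 18 brighter genes) against 0.01 over all genes. In the limma fit, 5 of the 29 fell and 0 rose, where 4.73% of all genes fell. With the block 19 fell and 0 rose, where 7.37% of all genes fell, and these were 6 of 8 H1, 3 of 6 H2A, 7 of 8 H2B and 3 of 7 H4 genes. Since whole sorted populations were measured, fewer cells in S phase and less histone mRNA per cell cannot be told apart.

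Among linker genes, H1f5 had a lowest, median and highest intensity of 3383, 5417 and 7161 in CD69- DP, 1239, 3121 and 5215 in CD69+ DP, and 3282, 4735 and 6209 in SP4 cells. The populations overlapped, yet every CD69+ DP array was lower than the CD69- DP array of its genotype and number. Its difference was -1.0 ± 0.20 with the block (adjusted p = 0.0034, limma) and did not pass without it (adjusted p = 0.12). H1f1 showed the largest difference of all 29 genes, from 226, 502 and 842 in CD69- DP to 71.2, 178 and 593 in CD69+ DP cells. It was -1.36 ± 0.25 with the block (adjusted p = 0.0018, limma) and had an SE of 0.54 without it (adjusted p = 0.17). H1f2 fell by 1.05 ± 0.24 with the block (adjusted p = 0.0086, limma), and its lowest array, Gli3-/- CD69+ DP replicate 1 at 240, lay far below the highest of that population at 1402. The replication-independent H1f10 fell under both fits, by 0.62 ± 0.14 without the block (adjusted p = 0.013, limma), from 85.2, 91.8 and 119 to 52.9, 60.7 and 90.9. Of the germ line genes of this class, H1f7 had a difference of -0.09 and H1f8 of 0.12, neither called.

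In class H2A, H2ac10 was 1683, 2194 and 2598 (lowest, median, highest) in CD69- DP and 635, 1184 and 2152 in CD69+ DP cells, a difference of -0.93 ± 0.17 with the block (adjusted p = 0.0018, limma) and with an adjusted p of 0.10 without it. All 3 replicate 1 arrays of CD69+ DP cells, from 635 to 754, lay below every CD69- DP array, whereas 2 of the 3 replicate 2 arrays lay within the CD69- DP range. H2ac21 differed by -1.27 ± 0.14 and H2ac20 by -0.91 ± 0.21 with the block (adjusted p = 2.2e-05 and 0.010, limma). H2ac15 was not called under either fit (-0.60, adjusted p = 0.083 with the block, limma). The testis gene H2ac1 had a difference of 0.17, not called.

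Class H2B held 3 of the 5 genes that fell without the block. H2bc12 was 721, 947 and 1083 in CD69- DP and 209, 431 and 804 in CD69+ DP cells, a difference of -1.17 ± 0.27 (adjusted p = 0.018, limma). H2bc3 went from 445, 497 and 655 to 219, 324 and 439, and H2bc21, whose protein in mouse is known from olfactory neurons, from 195, 223 and 264 to 77.1, 129 and 192. These 2 are the only histone genes whose 6 CD69+ DP arrays all lay below the 6 CD69- DP arrays, which 3.26% of all genes did. The differences were -0.70 ± 0.16 for H2bc3 (adjusted p = 0.018) and -0.85 ± 0.21 for H2bc21 (adjusted p = 0.024, limma). H2bc18, at 410, 774 and 999.5 in CD69- DP and 133, 330 and 506 in CD69+ DP cells, differed by -1.32 ± 0.14 with the block (adjusted p = 1.7e-05, limma) but had an SE of 0.42 and an adjusted p of 0.078 without it. H2bc1, the testis H2B, stayed at 7.64 to 8.41 in CD69- DP and 6.87 to 9.18 in CD69+ DP cells.

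In class H4, H4c12 was 3236, 3729 and 4219 in CD69- DP and 2058, 2949 and 4001 in CD69+ DP cells, a difference of -0.34 that was not called under either fit (adjusted p = 0.10 with the block, limma). H4c9 fell under both, by 0.92 ± 0.21 without the block (adjusted p = 0.018, limma) and with an adjusted p of 0.00074 with it. Its CD69+ DP arrays, from 107 to 329, overlapped the CD69- DP range of 156 to 629. H4c14 had a difference of 0.15, not called. The remaining genes that fell with the block were H1f3 (-0.54) and the testis gene H1f6 (-0.33), H2bc9 (-0.88), H2bc14 (-0.48) and H2bc22 (-0.56), and H4c8 (-0.87) and H4c17 (-0.69), all dim but H1f3 and H2bc9. H2ac12 (-0.13), H4c1 (-0.36) and H4c2 (-0.22), dim as well, were not called. These genes other than H1f6 are outside the rule for naming and complete the account of the 29.

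**Figure D1:**
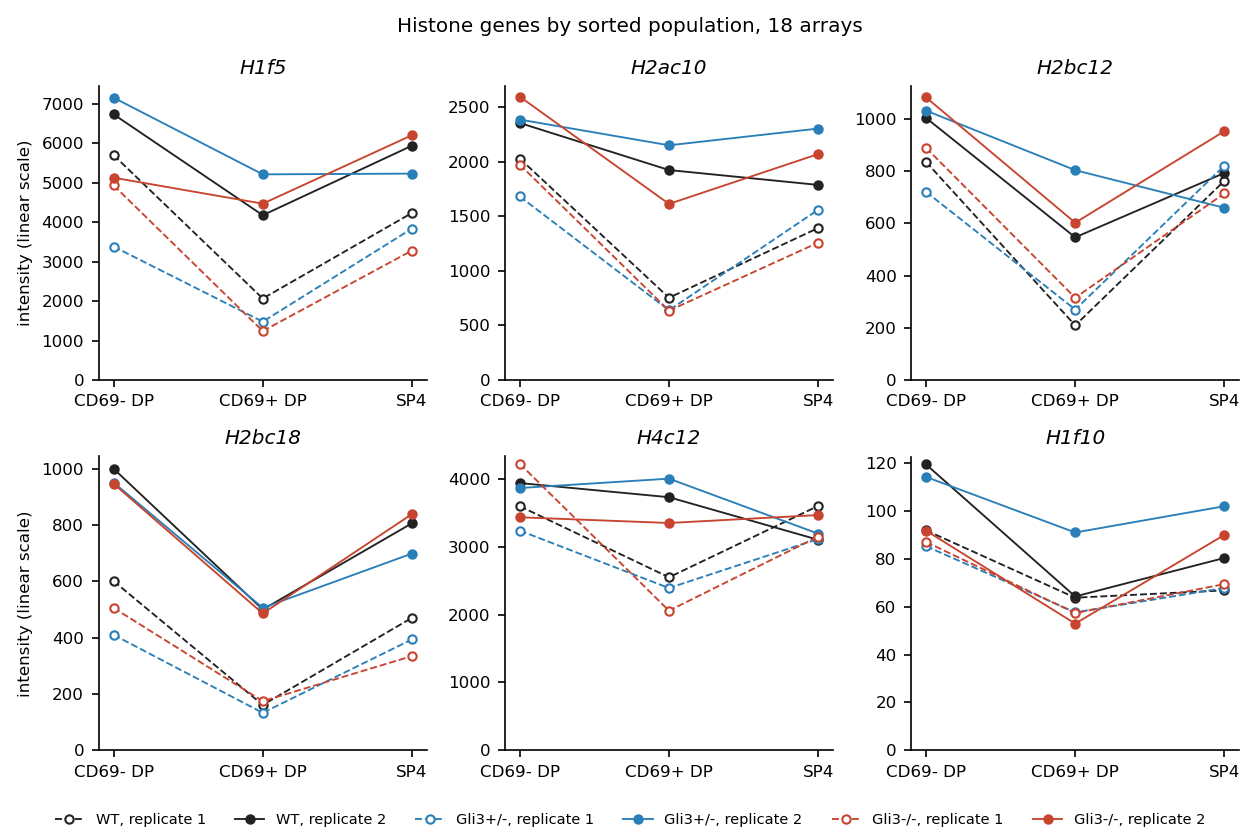
Intensity on a linear scale (y axis, from 0) of 6 histone genes in the 3 sorted populations (x axis), with 1 point per array; lines join arrays of the same genotype and replicate number, open circles are replicate 1 and filled circles replicate 2. In H1f5, H2ac10, H2bc12, H2bc18 and H1f10 every line falls from CD69- DP to CD69+ DP cells, and the replicate 1 arrays of CD69+ DP cells are the lowest of all in the first 4 of these genes.

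By array pairs of the same genotype and number, 20 of the 29 genes were lower in CD69+ DP than in CD69- DP cells in all 6 pairs (15 of the 18 brighter genes), against 9.96% of all genes. The median over the brighter genes was -1.09, -1.24 and -1.43 in replicate 1 of WT, Gli3+/- and Gli3-/- and -0.50, -0.46 and -0.52 in replicate 2. Each pair thus had its median below 0, and the 3 of replicate 1 were lower than the 3 of replicate 2. Leaving out a single array changed the count of 5 without the block to 2 (WT CD69- DP replicate 2, or Gli3-/- CD69+ DP replicate 1), 1 (Gli3+/- or Gli3-/- CD69- DP replicate 2, or WT CD69+ DP replicate 1) or 3 (Gli3+/- CD69+ DP replicate 1), and raised it to 13 without Gli3+/- and to 11 without Gli3-/- CD69+ DP replicate 2. With the block the count stayed between 16 and 19.

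From CD69+ DP to SP4 cells, 24 of 29 histone genes had a difference above 0, with a median of 0.30 (0.50 over the brighter genes) against -0.02 over all genes. Without the block 0 of 29 rose in the limma fit (6 at an unadjusted p under 0.05), where 4.41% of all genes rose. With the block 7 rose, where 7.66% did: H1f1 and H1f5, H2ac10, H2ac20 and H2ac21, and H2bc12 and H2bc18, but 0 of 7 H4 genes. No member fell under either fit. Both steps rest on the same CD69+ DP arrays.

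The rise was 1.02 ± 0.14 for H2ac21, 1.01 ± 0.25 for H1f1 and 0.997 ± 0.14 for H2bc18 with the block (adjusted p = 2.0e-04, 0.016 and 2.4e-04, limma; 0.22, 0.33 and 0.21 without it). H2bc12 reached 660, 778 and 954 in SP4 cells, a difference of 0.93 ± 0.19 with the block (adjusted p = 0.0054, limma; 0.063 without it). All 5 SP4 arrays other than Gli3+/- replicate 2 (660) were at 715 or more, above 5 of the 6 CD69+ DP arrays. H2ac10 reached 1260, 1675 and 2306 and rose by 0.59 ± 0.17 with the block (adjusted p = 0.040, limma; 0.34 without it), although WT replicate 2 was lower in SP4 (1789) than in CD69+ DP cells (1925). H2bc21, at 115, 135 and 205 in SP4 cells, had a difference of 0.20, and H1f10 of 0.30, neither called.

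**Figure D2:**
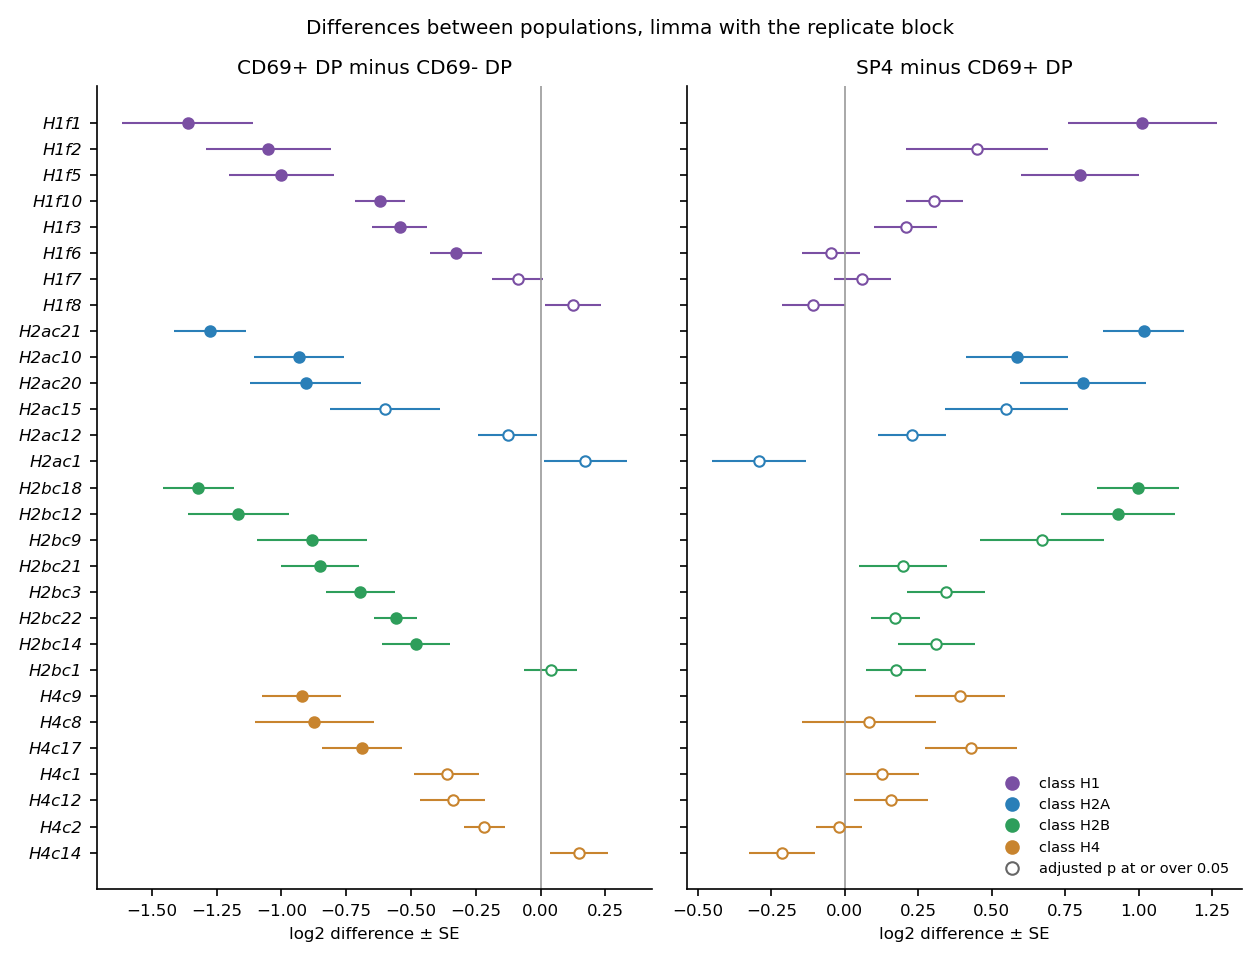
Log2 difference ± SE (x axes) of the 29 histone genes (y axis), grouped by class, for CD69+ DP minus CD69- DP (left) and SP4 minus CD69+ DP (right), from the limma fit with the replicate block; filled points have an adjusted p under 0.05. On the left 19 points are filled, all below 0; on the right 7 are filled, all above 0, and none of them is of class H4.

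By array pairs, 5 of the 29 genes were higher in SP4 than in CD69+ DP cells in all 6, as were 10.1% of all genes. The pair that departed most was Gli3+/- replicate 2, where 17 of 29 genes were lower in SP4 cells and the median over the brighter genes was -0.06. Medians of the other 5 pairs over the brighter genes ran from 0.32 to 1.17. Without Gli3+/- CD69+ DP replicate 2 the count with the block rose from 7 to 11, and it was 4 without Gli3+/- CD69+ DP replicate 1, WT SP4 replicate 1 or Gli3+/- SP4 replicate 1.

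Markers of some other cells also differed at this step. Summed markers of erythroid cells, B cells, thymic epithelium and mesenchyme overlapped between CD69+ DP and SP4 cells. Those of endothelium were lower in SP4 cells, at 559 to 705 against 751 to 836 in CD69+ DP cells. Of 7 myeloid markers, 4 rose without the block (6 with it), with a summed intensity of 376 to 704 in CD69+ DP and 586 to 1479 in SP4 cells. S100a8 rose by 3.37 ± 0.43 with the block. Csf1r, expressed by macrophages, was 52.6 to 62.1 in CD69+ DP cells, near the middle row, and 56.3 to 89.6 in SP4 cells. Of 4 genes of earlier thymocytes, 3 rose (4 with the block), with sums of 508 to 723 and 835 to 1220, and Il2ra rose by 0.89 ± 0.11 with the block. At the step before, 0 of 7 myeloid markers were called and the earlier thymocyte genes gave 1 lower call under both fits. The part of these cells in the histone values was not tested.

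SP4 and CD69- DP cells differed less: 26 of 29 genes had a difference below 0, all 18 brighter ones included, with a median of -0.24 against -0.01 over all genes. In the limma fit 0 of 29 fell (5 at an unadjusted p under 0.05), where 3.84% of all genes fell. With the block 7 fell, where 6.21% did. These were H2bc21 (-0.65 ± 0.15, adjusted p = 0.0076), H4c9 (-0.53 ± 0.15, adjusted p = 0.030) and H1f10 (-0.31 ± 0.10, adjusted p = 0.042, limma), together with H1f3, H1f6, H2bc22 and H4c8, of which only H1f3 lies above the middle row. H1f3, H2bc22 and H4c8 are named after their values were seen. Leaving out 1 array gave counts of 2 to 6. It was 2 without WT or Gli3+/- CD69- DP replicate 2, 3 without WT SP4 replicate 2, and 4 without WT or Gli3-/- CD69- DP replicate 1, Gli3+/- SP4 replicate 2 or Gli3-/- SP4 replicate 1.

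The H3 genes were seen only in rows that they share. Over the 35 distinct sets of values in rows with several symbols, 34 were below 0 from CD69- DP to CD69+ DP cells (median -0.73) and 31 above 0 from CD69+ DP to SP4 cells (median 0.30). For the 12 rows of H3 genes these were 12 of 12 (median -0.68) and 11 of 12 (median 0.29). Each of these rows carries either the same 8 symbols or the same 4, so they are not separate genes. Their means ran from 11.6 to 544, and most lay below the middle row. The H3 row of the highest mean intensity, shared by H3c2, H3c3, H3c4, H3c6, H3c7, H3c13, H3c14 and H3c15, had a mean of 544 and differences of -0.73 and 0.55. The row of H3c1, H3c8, H3c10 and H3c11 with a mean of 381 had -0.57 and 0.30. These rows were outside the tests, and a value in them cannot be given to a single gene.

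Other genes of histone supply and of the cell cycle were examined as lists, the counts here being those with the block and then without it. Of 32 DNA replication and S phase genes, 31 (25) fell from CD69- DP to CD69+ DP cells, with a median of -0.89, and 31 (23) rose to SP4 cells, with a median of 0.96. The largest falls were those of E2f8 (-1.48 ± 0.19), a transcriptional repressor of the cell cycle, Cdk1 (-1.41 ± 0.17), which drives entry to mitosis, and Prim1 (-1.35 ± 0.14), a subunit of DNA primase. Of 14 mitosis genes, 14 (13) fell, with a median of -1.31, and 13 (2) rose to SP4 cells, with a median of 0.87. SP4 minus CD69- DP had a median of 0.08 in the S phase list and -0.45 in the mitosis list, beside -0.24 in the histone genes.

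Of 18 genes for histone transcription and 3′ end processing, 5 (4) fell and 0 rose from CD69- DP to CD69+ DP cells, and 5 (4) rose and 1 (1) fell to SP4 cells. Slbp, which binds the stem-loop, fell by 0.87 ± 0.12 and rose by 0.89 ± 0.12 with the block. Eri1, the exonuclease that trims that end, fell by 0.54 ± 0.07, and Npat, the transcriptional coactivator of histone genes, by 0.40 ± 0.07. Tut7, a uridylyltransferase that acts on decaying histone mRNA, was the gene that fell to SP4 cells (-0.34 ± 0.08). Of 21 histone chaperones and importers, 11 (6) fell and 2 (1) rose, then 12 (8) rose and 0 fell. Chaf1a, of the replication-coupled assembly factor CAF-1, fell by 1.26 ± 0.13 and rose by 1.46 ± 0.13, and Asf1b differed by -0.92 ± 0.16 and 0.93 ± 0.16, whereas Hira, which deposits H3.3 outside S phase, differed by -0.03 and 0.02. The importin Ipo4 rose at both steps, by 0.88 ± 0.12 and 0.42 ± 0.12. Of 9 histone genes listed as replication-independent, 4 (1) fell at the first step and 1 (0) rose at the next. They were listed as polyadenylated or expressed outside S phase, and whether each is independent of the cell cycle in these cells was not tested. H1f10, already described as a histone cluster gene, is 1 of these 9, and it is the gene that fell without the block. H2ax, the variant phosphorylated at DNA breaks, differed by -1.19 ± 0.31 and 1.02 ± 0.31, Cenpa, the centromeric H3, by -0.77 ± 0.10 and 0.31 ± 0.10 (the latter not called), and H2az1 by -0.13 and 0.03, neither called. Hira and H2az1 were picked out after their values were seen.

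**Figure D3:**
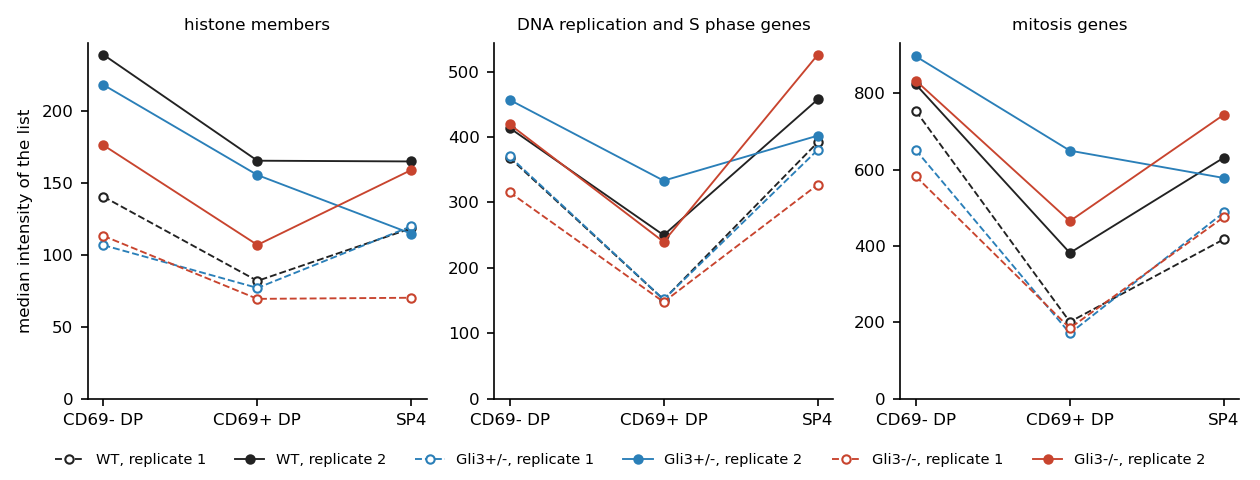
Median intensity on a linear scale (y axes, from 0) over the histone genes, the DNA replication and S phase genes and the mitosis genes on each of the 18 arrays, by sorted population (x axes); lines join arrays of the same genotype and replicate number. All 6 lines fall from CD69- DP to CD69+ DP cells in each of the 3 lists, and the histone median of Gli3+/- replicate 2 is lower in SP4 than in CD69+ DP cells.

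Histone genes also differed between the replicate numbers. Replicate 2 exceeded replicate 1 in 28 of 29 histone genes, with a median of 0.57 against -0.01 over all genes. In the limma fit 19 were higher on replicate 2 and 0 lower, where 7.56% of all genes were higher. In 14 genes replicate 2 was higher in all 9 groups (10 of the 18 brighter genes), against 4.21% of all genes. The numbers are those of the labels, and what sets the 2 series of samples apart is not given there.

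H4c8, a dim gene, had the largest difference. Its replicate 1 and 2 intensities were 44.3 and 249, 25.6 and 211, and 28.4 and 93.8 in CD69- DP cells of WT, Gli3+/- and Gli3-/-, and 17.6 and 121, 20.1 and 58.6, and 14.5 and 163 in SP4 cells. Every replicate 1 array lay below every replicate 2 array in both populations. Over all groups replicate 2 was higher by 2.39 ± 0.19 (adjusted p = 3.1e-06, limma). H1f1 (1.43 ± 0.21), H2ac21 (1.26 ± 0.11) and H2bc18 (1.20 ± 0.11) followed, and H1f7 was the single gene below 0 (-0.19, not called).

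By population, 5 genes were higher on replicate 2 in CD69- DP cells (1.56% of all genes), 17 in CD69+ DP (3.0%) and 5 in SP4 cells (1.66%), with medians over the brighter genes of 0.36, 1.31 and 0.53. This fit by population, with the direct tests below, was added after the values were seen. H2ac10, for example, was 754, 638 and 635 on replicate 1 and 1925, 2152 and 1615 on replicate 2 of CD69+ DP cells of WT, Gli3+/- and Gli3-/-. Its replicates did not overlap there, and the difference was 1.48 ± 0.11 (adjusted p = 8.9e-06, limma) against 0.37 ± 0.11 in CD69- DP and 0.55 ± 0.11 in SP4 cells. Tested directly, the difference was larger in CD69+ DP than in CD69- DP cells in 1 gene, H2ac10 (0.352% of all genes; 12 members at an unadjusted p under 0.05), and smaller for SP4 than for CD69+ DP cells in 2, H2ac10 and H2bc12 (0.144%; 14 members at an unadjusted p under 0.05).

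**Figure D4:**
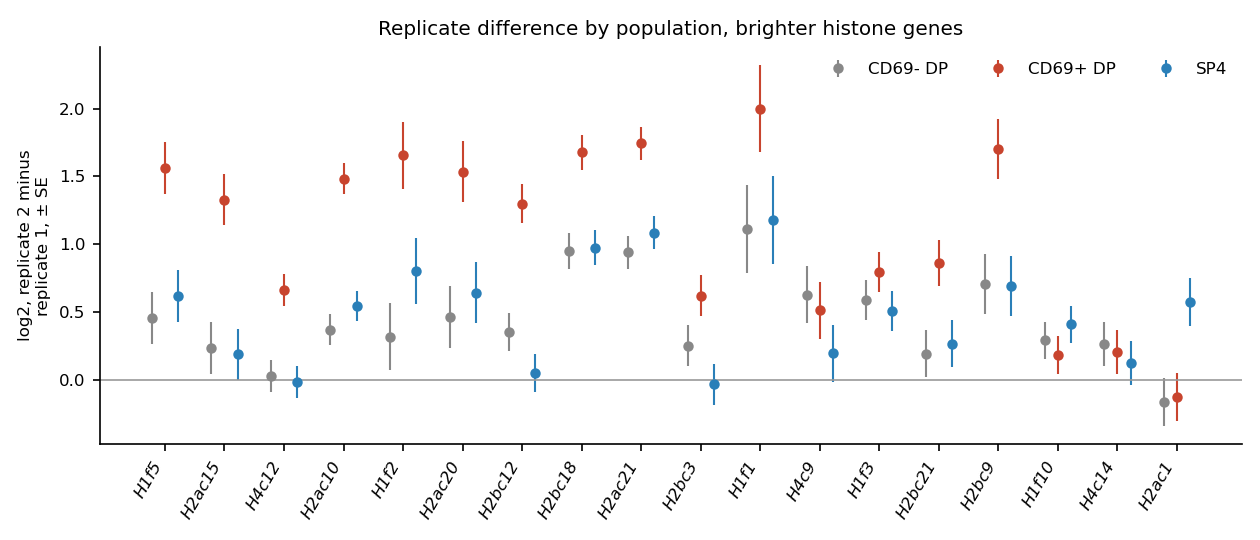
Log2 difference of replicate 2 minus replicate 1 ± SE (y axis) in each sorted population for the 18 brighter histone genes (x axis, in order of mean intensity). The CD69+ DP point is the highest in most genes; H4c9, H1f10, H4c14 and H2ac1 are those in which it is not.

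Cell cycle and stress genes differed in the same direction between the numbers. Replicate 2 was called higher in 30 of 32 S phase genes (32 above 0, median 0.50), 14 of 14 mitosis genes (median 0.72) and 12 of 14 immediate early and stress genes (13 above 0, median 0.90), with Jun 2.59 ± 0.14, Fos 2.29 ± 0.18 and Hspa1a 1.58 ± 0.23 higher. Taken by population, in the order CD69- DP, CD69+ DP, SP4, the medians were 0.37, 0.71 and 0.30 for the S phase list, 0.33, 1.42 and 0.42 for the mitosis list and 0.73, 1.01 and 1.07 for the immediate early list. The part of these in the difference of the histone genes was not tested.

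Genotype was the comparison the study was built on. As a mean over the 3 populations, 23 of 29 histone genes had a Gli3-/- minus WT difference below 0, with a median of -0.09 against -0.01 over all genes, and Gli3+/- minus WT had a median of 0.02 with 15 above 0. In the limma fit without the block, 0 of 29 were called for Gli3-/- (3 at an unadjusted p under 0.05; 0.0135% of all genes were lower) and 0 for Gli3+/- (0 at an unadjusted p under 0.05; 0% of all genes were called). Within CD69- DP, CD69+ DP and SP4 cells, 0 were called in each (1, 1 and 3 at an unadjusted p under 0.05), where 0.0135%, 0.00902% and 0.0135% of all genes were called. With the block 1 gene, H4c9, was lower in Gli3-/-, where 0.0180% of all genes were, which is 4 genes. The 3 populations of a genotype and number may come from the same embryos. Their arrays may then not be independent, and the SE and p of a mean over populations may be too small.

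Earlier results of these same data had already named H4c9. It had replicate 1 and 2 intensities of 410 and 629 (WT), 311 and 470 (Gli3+/-) and 156 and 249 (Gli3-/-) in CD69- DP cells. In the same order they were 205 and 273, 150 and 329, and 108 and 107 in CD69+ DP cells. SP4 cells gave 319 and 379, 216 and 379, and 151 and 109. Both Gli3-/- arrays lay below both WT arrays in every population, which held for 1 of 29 histone genes and for 0.509% of all genes (113), and below both Gli3+/- arrays too. The difference was -1.31 ± 0.15 with the block (adjusted p = 0.0023, limma) and -1.31 ± 0.21 without it (adjusted p = 0.13), and within the populations it was -1.36 (CD69- DP), -1.14 (CD69+ DP) and -1.44 (SP4). Leaving out any 1 array of WT or Gli3-/- left it between -1.48 and -1.14 with the block. Against Gli3+/-, a comparison that shares the Gli3-/- arrays, it was -1.05 ± 0.15 with the block (adjusted p = 0.032, limma; 0.0180% of all genes were lower) and was not called without it. Both mean differences come from fits that counted arrays of different populations as independent. If these share embryos, the SE and p given may be too small.

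Only 3 of 22180 genes had a lower Gli3-/- minus WT difference than H4c9, and these were the Y-linked genes Eif2s3y, Kdm5d and Uty. They lay between 15.1 and 27.3 on all Gli3-/- arrays and between 100.3 and 696 on all others, and the X-linked Xist was at 39.7 to 52.4 on WT replicate 1 and between 2730 and 4850 on every other array. Arrays of WT replicate 2 and of both Gli3+/- numbers thus held both Xist and Y-linked transcripts. Sex and genotype cannot be told apart in the comparison of Gli3-/- with WT, and H4c9 is on chromosome 13. Gli3 lies on the same chromosome, where H4c9 had the lowest difference of 865 genes. The 20 nearest measured genes around it, 10 on each side, ranged from -0.29 to 0.18, among them the adjacent histone gene H2bc12 at 0.18. Most of them were dim, so a difference in them could hardly show. All 10 on one side were Vmn1r genes, with means of 7.51 to 69.4. Only H2ac15 (-0.29), H1f5 (-0.26) and H2bc12 lay far above the middle row. The other 20 histone genes on that chromosome ranged from -0.71 to 0.19 with a median of -0.07, and the 8 elsewhere had a median of -0.11. A row shared by H4c9 with H4c1, H4c2, H4c8, H4c17 and H4c18 (mean 436) differed by -0.10, and since H4 coding sequences are near-identical the row of H4c9 alone rests on what its probes distinguish. Probe sequences were not used here, and whether a sequence difference inherited with the Gli3 mutation reaches these probes was not tested.

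**Figure D5:**
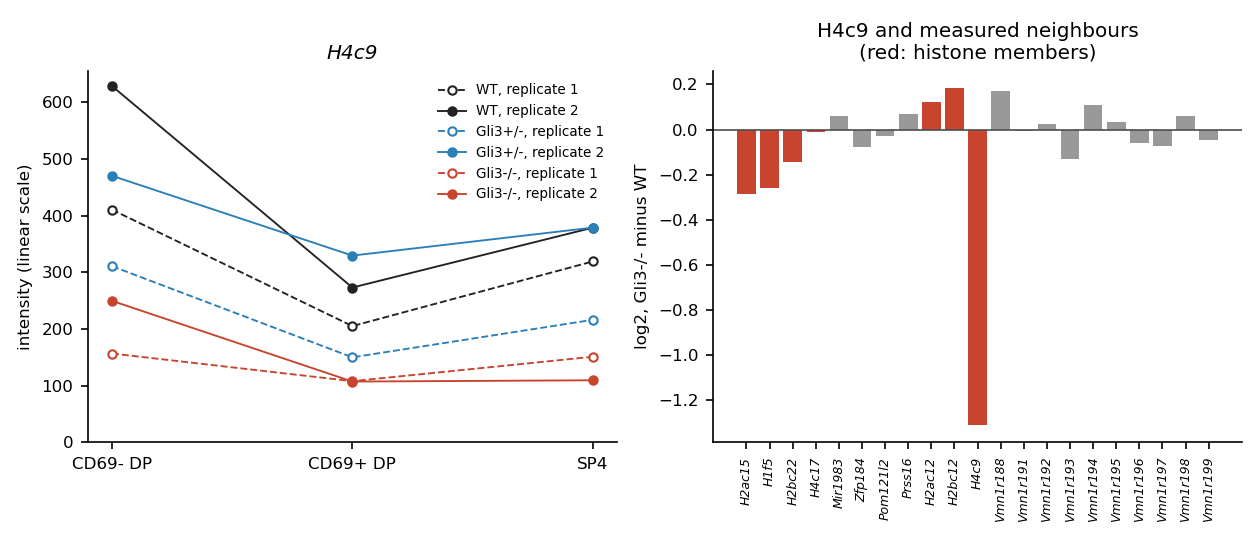
Left, H4c9 intensity on a linear scale (y axis, from 0) by sorted population (x axis), 1 point per array, with lines joining arrays of the same genotype and replicate number; the Gli3-/- arrays (red) are the lowest pair in every population. Right, log2 difference Gli3-/- minus WT (y axis, mean of 3 populations) of H4c9 and its 20 nearest measured neighbours in gene order (x axis), histone genes in red. H4c9 stands at -1.31 and the neighbours, most of them dim, between -0.29 and 0.18.

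The other histone genes gave no call between genotypes. H4c8 had a difference of -0.71 ± 0.23 and H1f1 of -0.64 ± 0.25 with the block (adjusted p = 0.82 and 0.83, limma), and H2bc12 had the largest positive difference of the brighter genes, 0.18 ± 0.19 (adjusted p = 0.95). The step from CD69- DP to CD69+ DP cells had a median over the 29 genes of -0.61 (WT), -0.60 (Gli3+/-) and -0.54 (Gli3-/-), and the step to SP4 cells medians of 0.19, 0.15 and 0.45 in the same order. Over the 18 brighter genes the medians were -0.79, -0.79 and -0.93, then 0.44, 0.61 and 0.57, so the order of the genotypes depended on which genes were counted. The change of either step between Gli3-/- and WT was called in 0 of 29 genes without the block (0 and 1 at an unadjusted p under 0.05, limma; 0% of all genes in both) and in 0 with it (0% and 0.00451% of all genes). A missing call does not show that the steps were alike.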

How the data were processed

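RNA of 18 sorted fetal thymocyte samples (9 groups of 2) was hybridised to Affymetrix Mouse Gene 2.0ST arrays. The deposited intensity values are linear and were made by the authors with RMA from the oligo package, which corrects background, applies quantile normalisation and summarises probes. Versions, build and annotation release were not given in the sources used here. RMA makes arrays alike in distribution, so a shift shared by most genes is removed. The 29 members and all gene lists were chosen with earlier results of these data known.

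Of 41345 rows, 23521 carry 1 gene symbol of GEO's platform annotation, 1820 several and 16004 none; a gene with several rows (1082 genes) took the row with the highest mean, which left 22180 genes. Values were log2 transformed with a pseudocount of 0, since a log2 scale had been foreseen and a linear one was found. limma 3.58.1 (R 4.3.3) fitted 1 mean per group (lmFit, eBayes), with Benjamini-Hochberg adjustment over all genes, without and with the replicate number as a block (residual degrees of freedom 9 and 8, prior 4.73 and 6.73). The script was tested on simulated data. The small number of arrays limits the precision.

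Replicate numbers pair the samples: labels repeat a genotype with a number across populations, sex-linked transcripts kept the same pattern for each such label in all 3 populations, and deviations from the group means correlated in each of the 18 pairs of groups compared (lowest 0.134; over all 36 pairs 0.0777 to 0.549, median 0.306).

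Genes are named by rule: the 3 brightest of each class, the 3 largest differences in each direction among members at or above the middle row in each main comparison, H4c9, the linker genes H1f0 and H1f10 and the germ line genes, and up to 4 of each other list. H4c9 is in the rule because earlier results of these same data had named it. Promoter sequences come from RefSeq (GRCm38.p6), whose table held 27 of the 29 genes. Alternatives were median centring, cyclic loess, a filter on dim genes, the mean of a gene's rows, all rows tested, eBayes with trend and robust, an ordinary t-test with equal variances, smaller fits and each array left out in turn.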

Additional observations from a re-analysis of the deposited data

Results flagged for a closer look

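Replicate 2 minus replicate 1 differed between sorted populations in H2ac10 and H2bc12 by a direct test that was added after the values were seen. For H2ac10 the difference was larger by 1.11 ± 0.16 in CD69+ DP than in CD69- DP cells (adjusted p = 0.0090, limma), and for SP4 against CD69+ DP cells its change was -0.94 ± 0.16 (adjusted p = 0.033, limma). For H2bc12 the change for SP4 against CD69+ DP cells was -1.25 ± 0.20 (adjusted p = 0.030, limma).

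In 3 dim genes both Gli3-/- pairs of arrays moved one way at a step and both Gli3+/- pairs the other, by small amounts, and the difference was not tested. The step from CD69- DP to CD69+ DP cells was lower in Gli3-/- by 0.23 for H1f7 (-0.23 on the log2 scale) and by 0.28 for H2bc1 (-0.28), and the step from CD69+ DP to SP4 cells was higher in Gli3-/- by 0.34 for H4c2.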

How the results depend on the processing

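The replicate block raised the counts of histone genes called from 5 to 19 for CD69+ DP minus CD69- DP, from 0 to 7 for SP4 minus CD69+ DP, from 0 to 7 for SP4 minus CD69- DP, and from 0 to 1 (H4c9) for Gli3-/- minus WT as a mean of populations and, from 0 to 1 as well, for Gli3-/- minus Gli3+/-. It changed no count for Gli3-/- minus WT within a population, Gli3+/- minus WT or the change of a step between genotypes. A block by genotype and number gave 21, 10 and 6 for the 3 comparisons of populations. Each genotype's own step from CD69- DP to CD69+ DP gave 0, 0 and 0 calls without the block, and 7, 1 and 3 with it (WT, Gli3+/-, Gli3-/-). For these counts by genotype, and for those of the block by genotype and number, the shares of all genes called are not given here. They therefore do not compare histone genes with other genes, or 1 genotype with another. With all rows tested 1 gene fell from CD69- DP to CD69+ DP cells, since more rows enter the adjustment, and the adjusted p of H2bc12, H2bc3, H2bc21 and H4c9 became 0.056, 0.053, 0.068 and 0.053 (limma). Without dim genes 1 rose from CD69+ DP to SP4 cells. For Gli3-/- minus WT (CD69- DP first, SP4 last) an ordinary t-test with equal variances and no adjustment called 1, 1 and 2 histone genes and 0 after Benjamini-Hochberg adjustment, and the moderated limma test at an unadjusted p under 0.05, which is the threshold of the study's methods, 1, 1 and 3. Leaving out 1 array gave 1 to 13 calls for CD69+ DP minus CD69- DP, 0 to 2 for SP4 minus CD69+ DP and 0 to 1 for SP4 minus CD69- DP, and with the block 16 to 19, 4 to 11 and 2 to 6; these blocked counts were added after seeing the data. For replicate 2 minus replicate 1 it gave 14 to 19. For H4c9 in Gli3-/- the count with the block stayed at 1. No called value changed direction under any alternative run, and 207 counts under an alternative stayed within 1.5 times of the main one while 44 did not. Of the medians, 154 were classed as the same and 60 as moved. Of the single-gene results, 200 were classed as the same, 40 as weaker and 1 as stronger. Where not stated, the cause was not tested. Rows shared by paralogues and values near the array's background limit what can be said of single genes.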
